A study of Canis lupus familiaris with 2 samples.

Results

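Levels of 10 genes of peptide signalling were measured in single cells of dog neuroretina. Of these, 7 encode neuropeptide precursors (*CARTPT*, *TRH*, *PENK*, *TAC1*, *NPPC*, *VIP* and *NPY*) and 3 encode granins (*VGF*, *SCG2* and *CHGB*). They are 10 of the 34981 genes listed for dog N350 and of the 19947 listed for dog N354. They were chosen by name after their levels by cell class had been seen in these same cells. The levels below are therefore a description, and no test was made on them. Both dogs were normal or wild-type males aged 40 weeks, with no treatment named, and they are the only replicates (n = 2). Cells of the dissociated neuroretina were captured in droplets. The authors counted unique molecular identifiers (UMIs), which count each captured mRNA molecule once.

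Neuropeptides are cut from precursor proteins inside dense-core vesicles, the larger vesicles that neurons release more slowly than synaptic vesicles. Granins are acidic proteins that help to form and load these vesicles and are themselves cut into peptides. In the vertebrate retina, amacrine cells are the best known source of neuropeptides. These interneurons of the inner retina use GABA or glycine as their fast transmitter, and a peptide is usually limited to a few of their types.

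The libraries held 8900 cells and 24030707 UMIs in N350 and 4392 cells and 9711202 UMIs in N354, with medians of 1298 and 1204 UMIs per cell. The authors' counts of the dogs rest on different gene lists, which share 15224 names, so a difference between the dogs and one between the gene lists cannot be told apart. A total of 6 barcodes occurred in both libraries (0.0674% and 0.137% of cells). The names that start with MT- include the mitochondrial genes only in N354, and the median share of UMIs on the mitochondrial genes was 6.32% and 7.8%. Cells were placed in classes by raw UMIs of markers that are not among the 10 genes. The GABAergic amacrine class, gated on *GAD1*, *GAD2*, *SLC32A1*, *TFAP2A*, *TFAP2B* and *C1QL2*, held 219 and 31 cells, with all 6 markers found in both dogs. The glycinergic-like class, gated on *SLC6A9*, *EBF3* and *EBF1*, held 130 and 14 cells, and its remaining marker, *SLC6A5*, had 0 UMIs in both dogs. A further 42 and 2 cells passed both gates. These had 0 UMIs of *GAD1* and *GAD2* in both dogs, so they passed the GABAergic gate by its other markers. There were 345 and 277 bipolar cells, 1013 and 501 Müller glia, 104 and 16 horizontal cells, 243 and 123 cones, 140 and 63 astrocyte-like glia, and 5327 and 2992 rods. The ganglion-like class held 9 cells in N350 and 0 in N354. UMIs of markers of other classes were found in every class. Summed rod markers stood at 13.3 and 9.73 UMIs per 10000 in GABAergic amacrine cells against 478 and 589 in rods. Summed Müller markers stood at 8.13 and 17.2 in amacrine cells against 120 and 165 in Müller glia, and at 4.74 and 2.45 in rods. In amacrine cells of N354 they came from 3 of the 6 markers, with *RLBP1*, *KCNJ10* and *AQP4* at 0 UMIs. Whether these UMIs were free RNA or the cells' own was not tested.

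A level pools the cells of 1 class in 1 dog and gives the UMIs of a gene in every 10000 UMIs counted there. Brackets hold 95% intervals, exact Poisson for levels and exact conditional for ratios, and they cover counting error only. A cell was called positive at 3 or more UMIs. Because the gated neurons were several times deeper than rods, the share of cells with any UMI is also given after each cell was thinned to 1000 UMIs. Rods (medians of 1061 and 1014 UMIs) serve as a reference. Whether their UMIs of the 10 genes were free RNA was not tested. The median depths were 6661 and 6641 UMIs in amacrine cells, 3517 and 3025 in glycinergic-like neurons and 6896 and 6050 in Müller glia. Thinning left out shallower cells, 2369 and 1457 rods, 31 and 24 Müller glia, 3 and 0 amacrine cells, and 0 and 1 glycinergic-like neurons.

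Among the 8 classes with at least 10 cells in both dogs, the mean of the dogs was highest in GABAergic amacrine cells for *CARTPT*, *TRH*, *TAC1*, *VIP*, *SCG2*, *CHGB* and *VGF*, and in glycinergic-like neurons for *PENK*, *NPPC* and *NPY*. The class was the same in each dog taken alone for 9 of the 10 genes, but for *PENK* this rests on 1 UMI in N354 and for *VIP* on 1 cell in each dog. The exception was *VGF*, whose level was highest in bipolar cells of N350 and in amacrine cells of N354. No level exceeded 0.295 in rods or 0.136 in cones, both of *SCG2*.

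**Figure D1:**
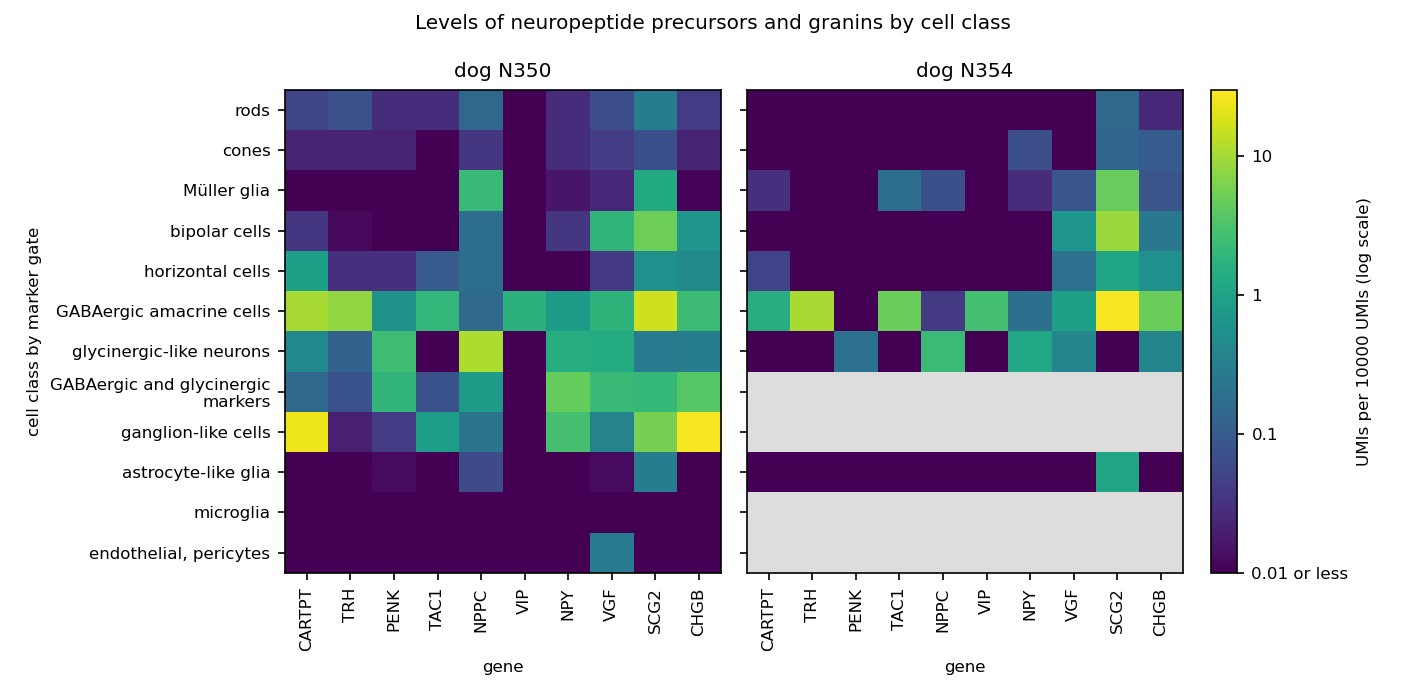
Level of each gene (columns, UMIs per 10000 UMIs, colour on a log scale) in each gated class (lines of the heat map) for each dog, with grey where a class had too few cells. The bright squares of *TRH*, *TAC1*, *VIP* and *SCG2* lie in GABAergic amacrine cells and those of *NPPC* in glycinergic-like neurons. *SCG2* extends to bipolar cells, Müller glia and ganglion-like cells. *CARTPT* is bright in GABAergic amacrine cells, but in N350 its brightest square and that of *CHGB* lie in ganglion-like cells.

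*TRH*, which encodes the precursor of thyrotropin-releasing hormone, gave the same picture in both dogs. Its level in GABAergic amacrine cells was 8.02 [7.61, 8.45] UMIs per 10000 in N350 (1416 UMIs) and 10.4 [9.22, 11.8] in N354 (267 UMIs), a mean of 9.23 ± 1.7 (SD, n = 2). Positive cells were 64 of 219 (29.2%) and 11 of 31 (35.5%). Any *TRH* UMI was found in 37.0% and 48.4% of amacrine cells and, after thinning, in 24.4% and 34.9%. Rods of N350 had 0.751% before and 0.505% after thinning, and a level of 0.0723. The next class in N350 was glycinergic-like neurons, 67.6-fold lower [31, 184]. In N354 the level in rods was 0.00281. Below the first class, no ratio of neighbours in the order of levels had an interval above 1 in either dog.

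*CARTPT*, the precursor of the cocaine- and amphetamine-regulated transcript peptide, differed far more between the dogs. Its level in amacrine cells was 10.4 [9.94, 10.9] in N350, from 1838 UMIs, with 46 positive cells (21.0%). In N354 it was 1.48 [1.05, 2.04], from 38 UMIs of which 30 lay in 1 cell, and the level without that cell was 0.32. The mean of 5.95 ± 6.32 (SD, n = 2) thus had a spread larger than itself. In N350 the amacrine level was 193-fold [139, 279] that of rods and 11.5-fold [9.54, 13.9] that of horizontal cells. Any *CARTPT* UMI was found in 36.5% of amacrine cells and 0.657% of rods of N350, and in 16.8% and 0.494% after thinning. Rods of N354 had 0 UMIs, which allows up to 0.1% of 2992 cells. Ganglion-like cells, the output neurons of the retina by their markers, had the highest level of the gene, 24.2 in N350. It came from 4 of the 9 cells, with 862, 306, 30 and 22 UMIs, and the other 5 had 0. All 6 GABAergic markers were at 0 in these 9 cells.

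*TAC1*, the precursor of substance P and neurokinin A, was carried by few cells. The amacrine level was 1.98 [1.78, 2.2] in N350 and 4.96 [4.14, 5.9] in N354, with 21 (9.59%) and 5 (16.1%) positive cells and a mean of 3.47 ± 2.11 (SD, n = 2). A single cell held 112 of 350 UMIs in N350 and 39 of 127 in N354, and without it the levels were 1.36 and 3.52. Outside the amacrine gate, the positive cells of N350 were 3 ganglion-like cells, with 25, 13 and 6 UMIs, 2 horizontal cells and 1 cell of several gates. In N354 a further 58 UMIs lay in 1 cell of the Müller gate and 67 in 1 cell of no gate. *VIP*, the precursor of vasoactive intestinal peptide, was found in 1 amacrine cell per dog. That cell held 302 of all 303 UMIs in N350 and all 69 in N354. The cell of N350 also held 112 UMIs of *TAC1*, 52 of *TRH* and 224 of *SCG2*, and that of N354 held 39, 2 and 143. Both were thus rich in *TAC1* and *SCG2*. The class levels of *VIP*, 1.71 and 2.7, rest on these cells.

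*NPPC*, the precursor of C-type natriuretic peptide, was the leading peptide gene of glycinergic-like neurons. Its level there was 11.1 [10.2, 12.0] in N350, from 559 UMIs, with 66 of 130 cells positive (50.8%). In N354 it was 2.36 [1.22, 4.13], from 12 UMIs, with 2 of 14 cells positive (14.3%). The share of these cells with any UMI was 70.8% and 42.9%, and 51.8% and 24.0% after thinning. Rods of N350 had 1.5% and 1.18%, and rods of N354 had 0 UMIs, which allows up to 0.1% of 2992 cells. Müller glia, the radial glia of the retina, were second. Their level was 2.2 [2.09, 2.31] in N350, from 1634 UMIs, but 0.0706 [0.0447, 0.106] in N354, from 23 UMIs. In N350, 113 of 1013 Müller glia were positive (11.2%), any UMI was found in 32.8%, the thinned share was 11.2%, and the level was 15.4-fold [12.5, 19.1] that of rods. In N354, 0 of 501 Müller glia were positive, which allows up to 0.599%, and the share with a UMI was 3.99%, or 0.592% after thinning. Müller glia of N350 thus stood well above rods, and those of N354 had few UMIs in any cell. Amacrine cells of the GABAergic gate had 0.159 and 0.0391, in N350 1.11-fold [0.7, 1.71] the level of rods.

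*PENK*, the precursor of the enkephalins, had a level of 2.53 [2.11, 3.01] in glycinergic-like neurons of N350, from 128 UMIs, with 17 positive cells (13.1%). Cells that passed both inhibitory gates had 1.96, and the ratio of 1.29 [0.927, 1.82] did not separate the classes. GABAergic amacrine cells had 0.584, 4.34-fold [3.32, 5.68] below glycinergic-like neurons, with 11 positive cells. Any *PENK* UMI was found in 40.0% of glycinergic-like neurons, and after thinning in 16.4% of them and 0.197% of rods. In N354 only 3 UMIs were counted in the whole library, so its distribution was not measurable there.

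*NPY*, the precursor of neuropeptide Y, was the one peptide gene whose level was highest in the cells that passed both the GABAergic and the glycinergic gate, among the inhibitory classes. Such cells had 0 UMIs of *GAD1* and *GAD2* in both dogs. These 42 cells of N350 had a level of 4.53, from 120 UMIs in which 6 cells were positive, and 3.15 without the cell of 38 UMIs. Glycinergic-like neurons had 1.45 [1.13, 1.82] and 1.18 [0.434, 2.57] in N350 and N354, a mean of 1.31 ± 0.186 (SD, n = 2), but from only 73 and 6 UMIs. GABAergic amacrine cells had 0.81 and 0.195. The ratio of glycinergic-like to GABAergic cells was 1.78 [1.33, 2.38] and 6.05 [1.54, 25.1]. Of the 12 *NPY*-positive cells of the GABAergic gate in N350, however, 9 had UMIs of the glycinergic marker *SLC6A9*. In addition, 1 ganglion-like cell of N350 held 144 *NPY* UMIs together with 862 of *CARTPT*.

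*SCG2*, which encodes secretogranin II, was the most abundant of the 10 genes by UMIs, with 6122 in N350 and 3571 in N354. Its amacrine level was 16.9 [16.3, 17.5] and 27.9 [25.9, 30], a mean of 22.4 ± 7.74 (SD, n = 2), with 108 (49.3%) and 23 (74.2%) positive cells. The share with any UMI was 61.6% and 80.6%, or 43.8% and 68.5% after thinning. Rods had levels of 0.295 and 0.146, with 2.7% and 1.1% of cells with a UMI, or 2.12% and 0.546% after thinning. Bipolar cells had 5.08 [4.61, 5.59] and 9.02 [8.33, 9.76]. Amacrine cells were 3.33-fold [3, 3.69] and 3.09-fold [2.77, 3.44] higher than bipolar cells, a ratio that was close in the dogs although the levels were not. The bipolar level depended on the cells kept. With at most 10% of UMIs on MT- names, 26 of the 277 bipolar cells of N354 remained, they held 402 of the 625 UMIs, and their level of 52.8 lay above the 28.6 of amacrine cells. With the same limit on the 13 mitochondrial genes by name, a choice made after seeing the data, the bipolar level of N350 was 9.87 in 78 cells, below the 17.7 of amacrine cells.

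Müller glia also held *SCG2*, at 1.31 [1.23, 1.4] in N350 (977 UMIs) and 4.67 [4.44, 4.91] in N354 (1523 UMIs). Positive Müller glia were 128 (12.6%) and 184 (36.7%), any UMI was found in 40.5% and 66.1%, and thinned shares were 11.0% and 29.0%. The level was 4.45-fold [3.81, 5.22] and 31.9-fold [24.2, 42.9] that of rods, and 18.4-fold [9.98, 38.5] and 34.4-fold [17.4, 79.8] that of cones. Astrocyte-like glia had 0.3 and 1.16. *NPPC* and *SCG2* thus ran in opposite directions between the dogs in Müller glia, *NPPC* higher in N350 and *SCG2* higher in N354. This was not particular to Müller glia. In N354 *NPPC* was also lower in glycinergic-like neurons (2.36 against 11.1). *SCG2* was also higher in amacrine cells (27.9 against 16.9) and bipolar cells (9.02 against 5.08) of N354, but lower in its rods and glycinergic-like neurons. Glycinergic-like neurons had 14 and 0 UMIs of *SCG2*, a level of 0.277 in N350, 0.939-fold [0.504, 1.61] that of rods. *SCG2* of this class was thus not separable from rods in N350. The 0 UMIs in 14 cells of N354 allow up to 21.4% of cells with a UMI.

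**Figure D2:**
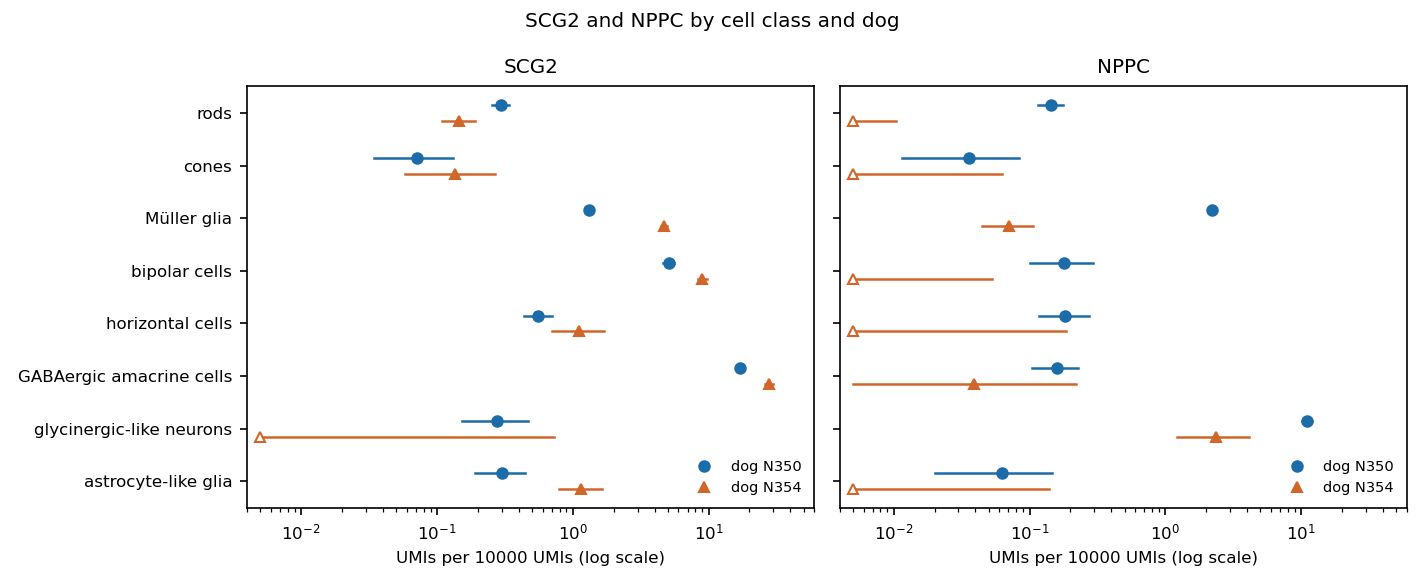
Levels of *SCG2* and *NPPC* (UMIs per 10000 UMIs, log axis, bars for exact Poisson 95% intervals) by cell class and dog, with open symbols at the left edge for classes with 0 UMIs. *SCG2* of Müller glia was 1.31 and 4.67 in N350 and N354 and *NPPC* was 2.2 and 0.0706, while *SCG2* of amacrine cells stayed above both, at 16.9 and 27.9.

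*CHGB*, which encodes chromogranin B, was highest in ganglion-like cells. All 9 were positive, with 4 to 452 UMIs and a level of 27.2 [25.7, 28.6]. GABAergic amacrine cells had 2.4 [2.18, 2.64] and 4.92 [4.1, 5.86], a mean of 3.66 ± 1.78 (SD, n = 2), with 41 (18.7%) and 15 (48.4%) positive cells, any UMI in 55.7% and 80.6%, and thinned shares of 17.9% and 33.4%. Cells of both inhibitory gates had 3.59 in N350, 1.49-fold [1.18, 1.87] above amacrine cells. A single cell held 34 of these 95 UMIs, and without it the level was 2.37, close to that of amacrine cells. Horizontal cells had 0.457 and 0.557, 11-fold [6.88, 18] and 22-fold [8.29, 60.1] the level of rods, with any UMI in 37.5% and 50% of cells. Their thinned shares were 4.92% and 6.89% against 0.319% of rods in N350 (0.432% before thinning). Horizontal cells thus held *CHGB* above rods in both dogs, at a low level.

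*VGF*, whose product is cut into several peptides, had similar levels in several classes of inner retinal neurons. Cells of both inhibitory gates had 2.27 in N350, with a ratio to bipolar cells of 1.22 [0.891, 1.65]. Bipolar cells had 1.86 [1.58, 2.17] and 0.664 [0.486, 0.886]. Amacrine cells had 1.85 [1.66, 2.07] and 0.938, a mean of 1.4 ± 0.647 (SD, n = 2). The ratio of bipolar to amacrine cells, 1 [0.823, 1.22] and 0.708 [0.423, 1.21], did not separate them in either dog. Glycinergic-like neurons had 1.37 and 0.394, and in N350 this was above their levels of *CHGB* (0.297) and *SCG2* (0.277). Müller glia of N354 had 27 UMIs, of which 20 lay in 1 cell described below.

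The peptides shared cells to a limited extent. In N350, 399 cells were positive for at least 1 of the 7 peptide precursors and 83 of these (20.8%) for 2 or more, of which 74 held 2, 8 held 3 and 1 held 4 or more. In N354 the counts were 28 and 6 (21.4%). Among GABAergic amacrine cells, 100 of 219 held a peptide in N350 and 50 of these held 2 or more, and in N354 15 of 31 and 4. Among glycinergic-like neurons of N350, 82 of 130 held a peptide and 13 of these (15.9%) held 2 or more. Over both dogs the share with 2 or more was 16.1% when positive meant 5 UMIs and 13.6% at 10 UMIs, the last chosen after seeing the data. These shares are mostly those of N350, with 43 of 281 and 19 of 162 cells, since N354 had 5 of 18 and 5 of 14.

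**Figure D3:**
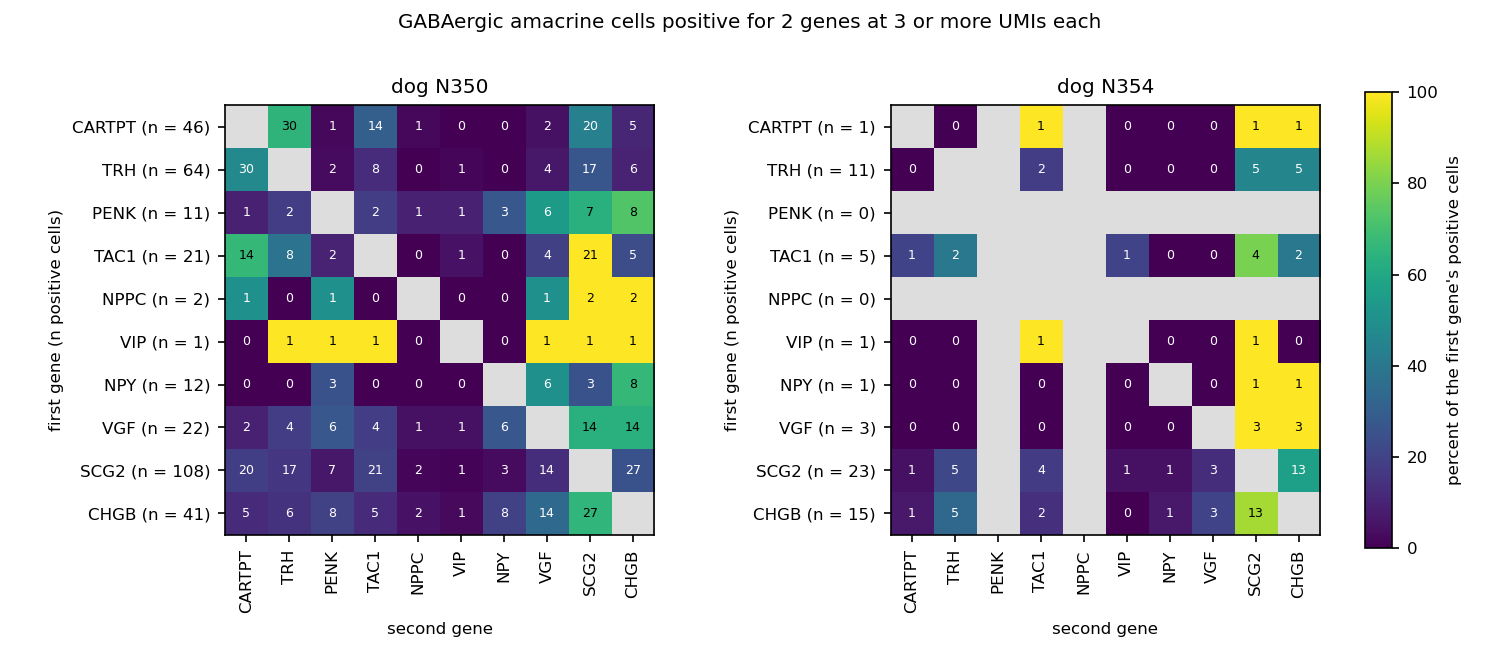
GABAergic amacrine cells of each dog positive (3 or more UMIs) for a pair of the 10 genes. Numbers are cells, colour is their percent of the positive cells of the gene at the left, and grey marks genes with 0 positive cells. In N350 *CARTPT* and *TRH* shared 30 cells, and *TAC1* shared all 21 of its positive cells with *SCG2*.

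In amacrine cells of N350, 30 cells were positive for both *CARTPT* and *TRH*, 65.2% of the 46 *CARTPT* cells and 46.9% of the 64 *TRH* cells. The amounts in these cells were unequal. In the 46 cells with at least 10 *TRH* UMIs (median depth of 13596 UMIs), *CARTPT* was found in 37 but with a median of 3 and at most 12 UMIs, a *CARTPT* level of 2.89 against 14.3 in the other amacrine cells. In the 18 cells with at least 20 *CARTPT* UMIs (median depth of 8908 UMIs), *TRH* had at most 4 UMIs and a level of 1.29 against 8.89 in the others. Cells rich in one precursor thus had a lower pooled level of the other than the remaining amacrine cells, although most *TRH*-rich cells held some *CARTPT*. The pooled *CARTPT* level rests on few rich cells, of which 1 held 275 of the 1838 UMIs of the class. By cell the precursors went together. *TRH* was positive in 65.2% of *CARTPT*-positive cells against 29.2% of all amacrine cells of N350. *CARTPT* was positive in 46.9% of *TRH*-positive cells against 21% of all. Positive cells were also deeper, with medians of 10878 UMIs for *TRH* against 5843 in cells without it. In N354, 0 amacrine cells were positive for both, and the 9 cells with at least 10 *TRH* UMIs had at most 2 of *CARTPT*.

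The *CARTPT*-rich cells leaned instead towards *TAC1*. Of the 18 cells with at least 20 *CARTPT* UMIs, 14 held *TAC1*, with a level of 6.16 against 1.45 in other amacrine cells. All 18 held *SCG2*, at 32.6 against 14.9. At 3 UMIs, 14 cells were positive for *CARTPT* and *TAC1*, 66.7% of the *TAC1* cells and 30.4% of the *CARTPT* cells. Cells with at least 10 *TAC1* UMIs numbered 9 and 4, and their *SCG2* level was 45.1 against 14.9 in N350 and 93.4 against 19.5 in N354. These small groups include the *VIP* cell of each dog. That cell alone held 224 *SCG2* UMIs in N350 and 143 in N354, the most of any amacrine cell, and raised these levels. *TRH* went the other way. Cells with at least 10 *TRH* UMIs had *SCG2* levels of 5.44 against 22.8 in N350 and of 8.09 against 42.8 in N354. In both dogs *TRH*-rich cells thus had a lower *SCG2* level than the other amacrine cells. The *VIP* cell of N350, with 52 *TRH* and 224 *SCG2* UMIs, was an exception. Only 17 of 64 *TRH*-positive cells were *SCG2*-positive in N350 (26.6%), and 5 of 11 in N354.

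**Figure D4:**
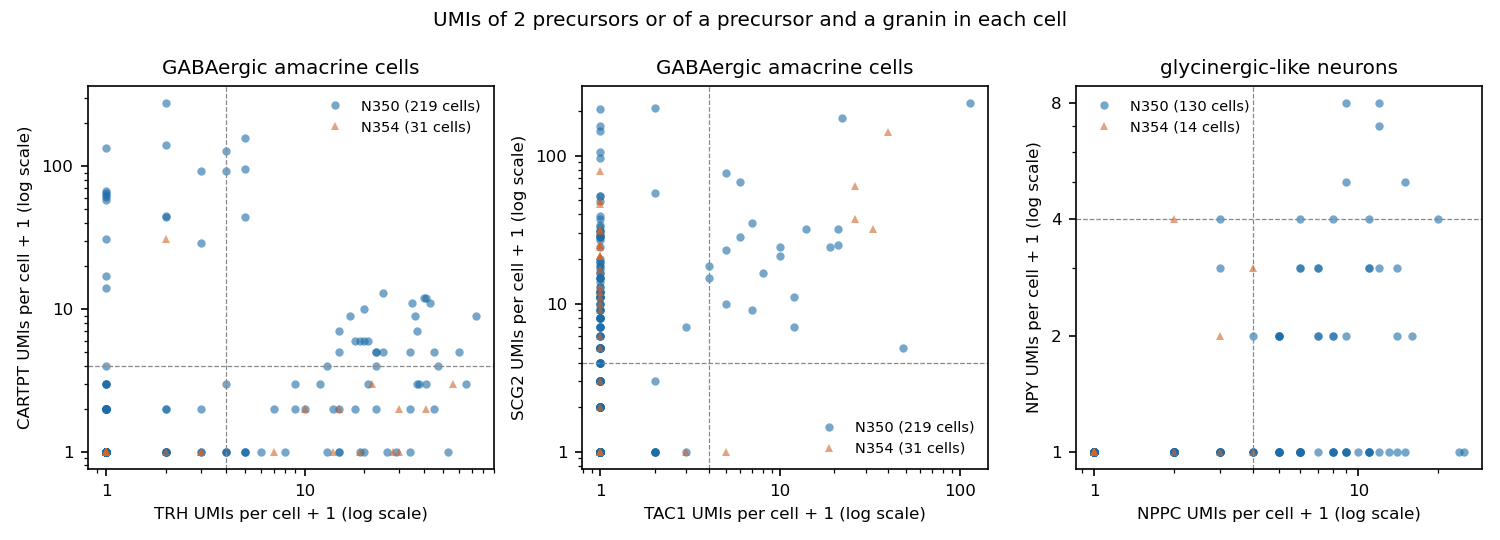
UMIs per cell plus 1 (log axes) of *TRH* and *CARTPT* and of *TAC1* and *SCG2* in amacrine cells, and of *NPPC* and *NPY* in glycinergic-like neurons, 1 point per cell, with dashed lines at 3 UMIs. Cells with at least 10 *TRH* UMIs lie at 12 or fewer of *CARTPT*, and all 21 *TAC1*-positive cells of N350 lie above the line of *SCG2*.

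In glycinergic-like neurons of N350 the main pair was *NPPC* with *NPY*. Of the 10 *NPY*-positive cells 9 were *NPPC*-positive (90%), which was 13.6% of the 66 *NPPC* cells. *NPY* had a level of 2.85 in *NPPC*-positive cells and 0.187 in the others, and *NPPC* had 24.6 in *NPY*-positive cells and 9.94 in the others. *PENK* stood apart from both. Its 17 positive cells held 0 *NPY* UMIs, and their *NPPC* level was 5.09 against 12.7 in the others, with 4 of the 17 positive for *NPPC*. In the GABAergic gate *NPY* had other partners. Its 12 positive cells there included 9 with UMIs of *SLC6A9*, a marker of the glycinergic gate. The *SLC6A9* level was 2.16 in the 12 cells against 0.121 in cells with 0 *NPY* UMIs. Of the 12 cells 8 were *CHGB*-positive, with a *CHGB* level of 11.3 against 2.06, and 1 cell held *NPPC*. Cells of both gates had the same pairing, with 5 of 6 *NPY* cells positive for *CHGB* and 4 of 6 for *VGF*. The *CHGB* level was 18.4 in those 6 cells and 1.66 in the others.

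Over all cells, a granin was more often called in peptide cells than in others, in 26.3% against 3.85% in N350 and 57.1% against 6.58% in N354. The peptide cells were also several times deeper, with medians of 6235 against 1238 and 6166 against 1199 UMIs. Within GABAergic amacrine cells a granin was called no more often in peptide cells, with 54% of peptide cells and 58.8% of others in N350 and 73.3% and 87.5% in N354. Cells of both inhibitory gates of N350 went the other way, with 64.3% of peptide cells and 17.9% of others (medians of 5634 and 6149 UMIs). In Müller glia of N350, 24 of the 113 *NPPC*-positive cells were positive for *SCG2* (21.2%), and a granin was called in 11.6% of Müller glia without a peptide, which were shallower (medians of 10993 and 6145 UMIs). The *SCG2* level was 1.40 in them and 1.30 in the other Müller glia. *SCG2* was thus at a similar level in Müller glia with and without *NPPC* of this dog.

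A few single cells held large amounts. Cells with at least 10 UMIs of *TH*, tyrosine hydroxylase, the enzyme that marks dopaminergic amacrine cells, numbered 5 in N350 and 2 in N354. The pair with the most *TH* in N350, 119 and 152 UMIs, held 62 and 73 UMIs of *CARTPT*, 21 and 22 of *PENK*, 53 and 27 of *VGF*, and 204 and 334 of *SCG2*. The pair of N354, with 39 and 24 *TH* UMIs, held 10 and 11 of *CARTPT*, 58 and 67 of *TAC1*, and 119 and 99 of *SCG2*. Both dogs thus had *TH* cells with *CARTPT* and *SCG2*, while the pair of N350 had 0 UMIs of *TAC1*. The pair of N354 also held 79 and 56 UMIs of *GLUL*, a marker of the Müller gate, against 2 and 0 in the pair of N350. Whether these droplets of N354 held RNA of more than 1 cell was not tested. The other 3 *TH* cells of N350 had 0 *CARTPT* UMIs. The pair of N354, of which 1 passed the Müller gate and 1 no gate, is outside the amacrine levels above, as is 1 of the pair of N350. Among ganglion-like cells, *CARTPT* and *CHGB* did not follow each other. The 5 cells without *CARTPT* included the 3 with the most *CHGB*, 452, 297 and 265 UMIs.

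Genes were next sought whose level was more than 4-fold higher in positive cells of a class than in its cells with 0 UMIs, in both dogs. Cells between 0 and 3 UMIs were left out. Ratios are a description. Fewer than 3 UMIs of a gene in the comparison cells were counted as 3, so some ratios are lower than the levels give. *TRH*-positive amacrine cells had 12 such genes. *CRH*, corticotropin-releasing hormone, led them with levels of 2.83 against 0.18 in N350 and 12.6 against 0.7 in N354 (15.7-fold and 17.9-fold). *PTPRZ1*, a receptor phosphatase, had 1.98 against 0.191 and 2.58 against 0, and *ATP2B4*, a plasma membrane calcium pump, was 18.4-fold and 9.5-fold higher. *SYNJ2* and *GSG1L*, an AMPA receptor subunit partner, followed with 14.1-fold and 7.28-fold, and 7.2-fold and 6.33-fold. *CRH* was found in 24 of the 64 and 7 of the 11 *TRH*-positive cells.

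*SCG2*-positive bipolar cells had 64 such genes, from 40 and 28 positive cells. *NPTX1*, neuronal pentraxin, stood at 4.57 against 0.0459 in N350 and 4.85 against 0.0685 in N354 and was found in 28 and 21 of the positive cells. *FEZF2*, a transcription factor of projection neurons, was 69.6-fold and 47.3-fold higher, *NRGN*, neurogranin, 43.4-fold and 77.3-fold, *SLITRK6* 41.4-fold and 75.2-fold, and *LMO7* 33.9-fold and 32.2-fold. In N354 the ratios of *NRGN* and *SLITRK6* rest on 0 UMIs in the comparison cells, counted as 3. *SCG2* of the bipolar class was thus concentrated in a minority of its cells (11.6% and 10.1%), which shared further genes in both dogs. *SCG2*-positive Müller glia had 0 such genes in both dogs, although they were deeper than those with 0 *SCG2* UMIs. Their medians were 10938 against 4610 and 8554 against 3314 UMIs. The remaining members could be compared in N350 alone. *NPPC*-positive glycinergic-like neurons had 101 such genes, led by *IGFBP5*, an IGF-binding protein, with 36.9 against 0.772 and UMIs in all 66 cells. *PENK*-positive ones were led by the transcription factor *TBX3*, 30.6-fold higher.

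Genes most like each of the 10 were ranked by Pearson's r over 19 sums of a class and dog among 9636 genes. These points share libraries and depth, and r is a description. Classes under 10 cells were left out, so the 9 ganglion-like cells, where *CARTPT* and *CHGB* were highest, did not enter. *TH* and *TFAP2A*, named below, had 0 UMIs in those cells, and *TFAP2A* is a marker of the amacrine gate. *CARTPT* was most like *TH* (r = 0.936), *GSG1L* (0.93) and the potassium channel gene *KCNC2* (0.891). Its amacrine levels of 10.4 and 1.48 stood against 0.907 and 0.0507 in horizontal cells, the next class, so these values rest on few sums. An r over sums does not show that *CARTPT* and *TH* share cells. *NPPC* was most like *CAMK2A* (0.9), *CPNE4* (0.893) and *CD22* (0.875), and *NPY* was most like *LAMP5* (0.943), *KCNC1* (0.936) and *ACTA1* (0.923). *CHGB* was most like *TFAP2A* (0.922), *SLC6A17* (0.915) and *RHOBTB2* (0.912), *VGF* most like *SAMD14* (0.938) and *NWD2* (0.912), and *SCG2* most like *GUCY1A1* (0.844), *FILIP1L* (0.827) and *RELN* (0.819). *TRH*, *TAC1* and *VIP* shared *KCNA1* and *SYT10* at r of 0.986 to 0.996, values that rest on the 2 amacrine sums. *PENK* had too few UMIs in N354 to be ranked.

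The other genes of the pathway are not among the 10 and were tested. Their lists and the gates were also set with results of these data known, so the tests are not independent of that choice. UMIs were summed per dog and class over 6 classes (rods, cones, Müller glia, bipolar cells, GABAergic amacrine cells and astrocyte-like glia), and each class was compared with the mean of the other 5 by edgeR's quasi-likelihood test with the dog as a block and Benjamini-Hochberg adjustment over 11879 genes. A gene was called at an adjusted p under 0.05. Of 19 genes for peptide processing and dense-core vesicles 17 could be tested, of 35 other neuropeptides 16, and of 20 receptors 12. Log2 fold changes below are given with their SE.

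In GABAergic amacrine cells 11 of the 17 processing genes were higher and 1, *CPE*, was lower, where 22.8% of all genes tested were higher and 15.4% lower. The median log2 fold change of the list was 2.35 and that of all genes 0.0191. *PAM*, which amidates peptides, was higher by 3.94 ± 0.22 (adjusted p = 7.23e-12). *SYT4*, a synaptotagmin of dense-core vesicles, was higher by 4.33 ± 0.29 (1.89e-10) and *CADPS*, which primes these vesicles, by 3.01 ± 0.24 (2.49e-09). *SCG5*, the chaperone of the convertase encoded by *PCSK2*, was higher by 2.58 ± 0.23 (1.06e-08). *PCSK1N*, which encodes an inhibitor of the convertase of *PCSK1*, was higher by 1.21 ± 0.14 (7.08e-07). Both convertase genes, *PCSK1* and *PCSK2*, were among the 11. *SCG3*, a granin that binds vesicle membranes, did not pass, with 0.10 (adjusted p = 0.706), and *QPCT*, which makes pyroglutamate ends as in the TRH peptide, had -0.49 (0.222). *BAIAP3* and *RAB27B* were called in the joint fit but were not higher in N354 alone. Without the dog as a block, neither passed, and 0 genes of the 3 lists were called lower in amacrine cells against 4 with it. The share of all genes called lower was 3.3% without the block and 15.4% with it.

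**Figure D5:**
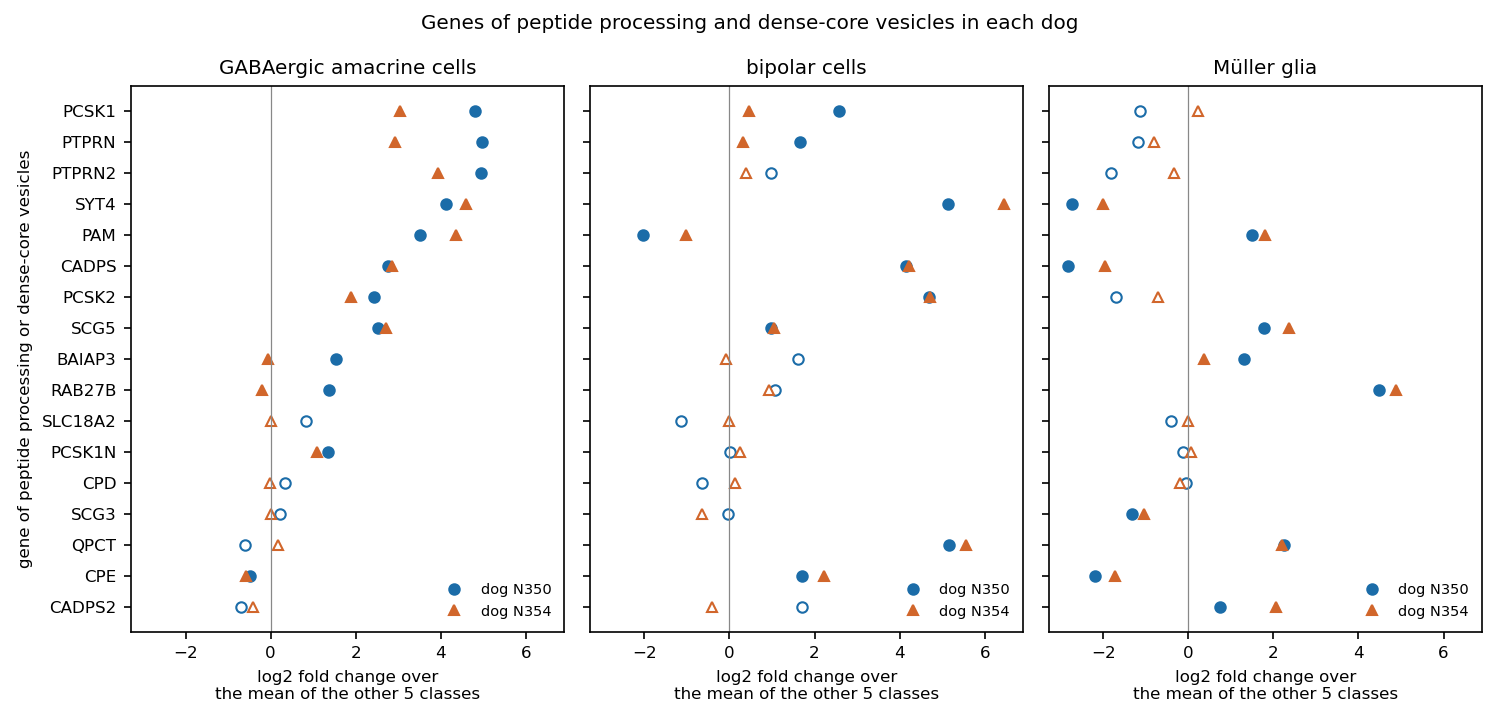
Log2 fold change of the 17 processing genes in each dog (circles N350, triangles N354), in GABAergic amacrine cells, bipolar cells and Müller glia over the mean of the other 5 classes, filled where the adjusted p of the joint edgeR fit was under 0.05. *PAM*, *SYT4*, *CADPS* and *SCG5* lie to the right in amacrine cells of both dogs, *BAIAP3* and *RAB27B* in N350 alone, and *QPCT* lies far to the right in bipolar cells.

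In bipolar cells 8 of the 17 were higher (background 13.1%) and 1, *PAM*, was lower (background 10.4%), with a median of 2.03 against -0.0573 for all genes. *SYT4* was higher by 5.86 ± 0.27 (adjusted p of edgeR 3.10e-13), *QPCT* by 5.44 ± 0.18 (1.43e-15) and *CADPS* by 4.4 ± 0.21 (4.85e-13). Without the block *PCSK1*, *PTPRN*, *SCG5* and *PAM* did not pass. In Müller glia 6 of the 17 were higher (background 29.2%) and 4, *CADPS*, *CPE*, *SCG3* and *SYT4*, lower (background 12.6%). The median was -0.0701 against 0.1 for all genes. Without the block 3 were higher (background 12%) and 2 lower (background 1.46%). The share of 6 in 17 lies near the background. By level, *PCSK1N* was highest in horizontal cells, at 25.4 and 34 UMIs per 10000 against 11.3 and 11.4 in amacrine cells. *SYT4* was also highest there, at 7.13 and 9.02, followed by bipolar cells at 7.05 and 8.69. *SCG3* was highest in astrocyte-like glia, at 10.3 and 27.9.

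Of the other neuropeptide genes, *AVP*, *CRH*, *GAL*, *NMB*, *NPPA* and *PTHLH* were higher in amacrine cells (6 of 16, where 22.8% of all genes were). *CCK* was lower (1 of 16, where 15.4% of all genes were). *NPPA*, *PTHLH* and *CCK* did not pass without the block. *AVP*, the vasopressin precursor, had 4.35 and 3.05 UMIs per 10000 there and a log2 fold change of 7.38 ± 0.32 (adjusted p of edgeR 2.44e-13). *CRH* had 1.25 and 6.21 in amacrine cells and 5.43 ± 0.31 (1.41e-11), but its level was higher in horizontal cells, 3.62 and 6.38. *CCK*, cholecystokinin, was a cone transcript, at 5.24 and 5.01, and was lower in amacrine cells by -3.90 ± 1.15 (0.01). In bipolar cells *BDNF* and *IGF1* were higher (2 of 16, near the 13.1% of all genes). *IGF1* was higher by 8.77 ± 0.38 (adjusted p of edgeR 1.01e-12), with 5.82 and 6.77 in the dogs taken alone. *CRH*, *GAL* and *OXT* were lower (3 of 16, where 10.4% of all genes were), the first 2 not without the block. Müller glia had 6 of 16 higher (29.2% of all genes) and 1, *CRH*, lower (12.6% of all genes). Without the block *HCRT*, *NMS*, *NPB* and *CRH* did not pass. The higher genes included *NPVF*, the precursor of RFamide-related peptides, with 1.39 and 7.32 UMIs per 10000 and 6.89 ± 0.28 (2.87e-14), and *OXT*, the oxytocin precursor, with 4.4 and 8.44 and 3.71 ± 0.16 (6.89e-14). *OXT* was higher still in astrocyte-like glia, at 4.68 and 10.2.

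Of the receptor genes, *ADCYAP1R1*, *NPR1*, *NPY1R* and *OPRL1* were higher in amacrine cells (4 of 12, where 22.8% of all genes were). *GPR37L1* and *NPR3* were lower (2 of 12, near the 15.4% of all genes). *ADCYAP1R1* and *NPR1* were higher in N350 alone, with log2 fold changes of 4.62 and 3.45 there and -0.13 for each in N354, and DESeq2 called neither. *OPRL1*, the nociceptin receptor, had a log2 fold change of 2.20 ± 0.45 in amacrine cells (adjusted p of edgeR 5.39e-04), which did not pass without the block. Its mean level was highest in glycinergic-like neurons, 0.594 and 1.97 UMIs per 10000, a class that was not in the test. In bipolar cells *GPR37* and *TACR3*, the neurokinin B receptor, were higher (2 of 12, where 13.1% of all genes were). *NPR3* was lower there (1 of 12, where 10.4% of all genes were), and none of these 3 passed without the block. In Müller glia *GPR37*, *GPR37L1*, *NPR2*, *NPR3* and *VIPR2* were higher (5 of 12, where 29.2% of all genes were) and 0 lower (12.6% of all genes). *GPR37L1* did not pass without the block. *NPR3*, the clearance receptor that binds the *NPPC* peptide, had 4.42 and 0.853 UMIs per 10000 and a log2 fold change of 5.91 ± 0.22 (1.02e-14). *NPR2*, the guanylyl cyclase receptor of the same peptide, had 0.0821 and 0.163 and 1.64 ± 0.32 (2.43e-04), which also did not pass without the block. Glycinergic-like neurons, not in the test, had 0.0396 and 0.394 of *NPR2*, above Müller glia in N354 only. That class of N354 held 50748 UMIs in 14 cells, where 1 UMI is a level of 0.197, so the order there is uncertain. *VIPR2*, a receptor of the *VIP* peptide, had 0.0242 and 0.141 and 5.90 ± 0.78 (adjusted p of edgeR 5.65e-06). In the dogs taken alone its log2 fold change was smaller, 2.41 and 3.53, from 24 and 52 UMIs in the whole libraries. Müller glia thus held *NPR2* and *NPR3* transcripts, in N350 together with *NPPC*, and both *NPPC* and *NPR3* were lower in N354 than in N350. *GPR37*, an orphan receptor, had 7.48 and 1.73 and was higher by 4.46 ± 0.21 (1.94e-13). Most receptor genes were near the limit of detection, since only 5 of 20 had at least 10 UMIs in each dog.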

How the data were processed

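Dissociated neuroretina of 2 normal dogs was profiled by droplet RNA sequencing. The authors aligned the reads with Cell Ranger 6.0.2 to canFam6, as the paper names it, and deposited raw UMI counts per gene and cell, without normalization. The lowest count of UMIs in a cell was 500. Cells with at least 200 genes were used, 8895 and 4387. The 10 genes, the gene lists and the markers were chosen with earlier results of these data known, and the numbers of marker UMIs required were settled after levels of the 10 genes by gate had been seen.

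A cell entered a class with at least 10 marker UMIs and 2.0% of its UMIs (rods), 10 and 0.3% (cones), 10 and 0.5% (Müller glia), 4 and 0.1% (bipolar cells), 8 and 0.2% (astrocyte-like glia), or 3 to 5 and 0.03% (other classes). Ganglion-like cells also needed 5 UMIs of neurofilament genes or *THY1*. The ganglion-like gate took precedence over the horizontal, GABAergic and glycinergic gates. The horizontal gate took precedence over both inhibitory gates, and the endothelial gate over the glycinergic one. Horizontal and ganglion-like classes could thus hold cells that also passed an inhibitory gate. Summed GABAergic markers stood at 9.2 and 8.36 UMIs per 10000 in horizontal cells. Cells that still passed 2 or more gates were left out as possible doublets (151 and 85), apart from those of only the GABAergic and glycinergic gates. Scrublet's own threshold in scanpy 1.11.5 marked 0% and 0.0455% of cells, so it was not used, and removal of the 4% with the highest scores (356 and 176) was an alternative. No mitochondrial limit was set. The study's limit, less than 5% on MT- names, left 8900 and 1369 cells. In N354 17 names occurred more than once and were summed.

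Sums per dog and class (at least 20 cells, genes with at least 10 UMIs) were tested with edgeR 4.0.16 (R 4.3.3) with TMM factors, and DESeq2 1.42.0 was an alternative. SEs are the log2 fold change over the square root of F. The dog pairs the sums because they come from 1 animal. Over 6 classes and 10594 genes, deviations from class means within a dog correlated between 0.636 and 0.828 (median 0.73), and 5 residual degrees of freedom were left. On simulated data for amacrine cells, the test recovered 200 of 200 genes changed by a log2 of 2, with 13 false calls among 10314 genes. The simulation had no effect of the dog and the same dispersion for all genes. Changed genes were drawn from those with larger expected sums. It therefore does not show how the test behaves with pairing by dog or for sparse genes. Named genes are the 10, up to 6 of each list by level, the 3 most correlated genes and the 5 with the highest ratio in positive cells. Some genes that these rules name are not reported here. Further genes in the text, such as *TH*, were picked with their values in view. Levels were computed in Python 3.11.15 with numpy 2.4.6, scipy 1.17.1 and pandas 2.3.3. Labels name each dog once, so the spread between dogs is that of 2 animals. No genome was used here and no coordinates or sequences are given.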

Additional observations from a re-analysis of the deposited data

How the results depend on the processing

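Apart from leaving out a dog, which with 2 dogs moves a mean by a fixed part of the SD and shows no stability, 49 of 51 recomputed levels moved by less than 1 SD between the dogs. The exceptions came with the mean over cells in place of summed UMIs, 7.14 in place of 9.23 for *TRH* in amacrine cells and 1.51 in place of 1.31 for *NPY* in glycinergic-like neurons. Where the SD is large, as for *CARTPT*, moving by less than it says little. Leaving out 1 dog gave 1.48 to 10.4 for *CARTPT* in amacrine cells, 2.36 to 11.1 for *NPPC* in glycinergic-like neurons and 16.9 to 27.9 for *SCG2* in amacrine cells. Under the limit of less than 5% on MT- names, N354 kept under 10 cells of most neuronal classes, so those levels and the amacrine and bipolar contrasts were not run. Glycinergic-like neurons of N354 also fell under 10 cells with 1 more marker UMI and with either limit of 10%, so *NPPC*, *PENK* and *NPY* were not recomputed there. With at most 10% on the 13 mitochondrial genes, added after seeing the data, amacrine *SCG2* was 23.2 in place of 22.4. The share of peptide cells with 2 or more peptides, 20.8%, was 16.1% at 5 UMIs and 13.6% at 10 UMIs.

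The counts of called list genes depended on pairing the sums by dog. With the dog as a block they were 21 higher and 4 lower in amacrine cells, 12 and 5 in bipolar cells, and 17 and 5 in Müller glia. Of all genes tested, 22.8% and 15.4%, 13.1% and 10.4%, and 29.2% and 12.6% were called with the block. Without the replicate block the list counts were 16 and 0, 7 and 1, and 9 and 2. The shares of all genes fell as well, to 9.9% and 3.3%, 4.5% and 1.42%, and 12% and 1.46%. DESeq2 gave 1 lower in amacrine cells (10.8% of all genes), 3 lower in bipolar cells (7.78%) and 10 higher in Müller glia (20.9%). RLE factors gave 3 lower in bipolar cells (10.2% of all genes), and removal of the highest Scrublet scores gave 2 lower in amacrine cells (15.5%). The limit of less than 5% on MT- names gave 2 lower in Müller glia (8.33% of all genes), among 36 list genes tested. The cause was not tested. Other alternatives kept these counts within 1.5 times. With 31 amacrine and 14 glycinergic-like cells in N354, depth limits what can be said of rare peptide cells there.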
